A study of Homo sapiens with 4 samples.

Results

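The genes described here copy DNA in S phase: those that license origins and activate the helicase, make deoxynucleotides, polymerise and join DNA, coat and protect the fork and rebuild chromatin behind it. The set was given as 39 gene symbols, and a probeset was assigned to a gene when it named exactly 1 of them, with ORC1, ORC6, CDC45 and POLA1 under their older names. All 39 were found, on 647 probesets, among 16544 genes named on the array. The filter on dim probesets left 624 of these probesets and all 39 genes, among 15720 genes tested.

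Levels were measured on 4 exon arrays of T-47D, an established human breast cancer cell line grown in DMEM with 10% FBS. In the mimic group (n = 2 arrays) the cells received p-27-5p, an artificial microRNA, as a mimic at 200 nM, and in the control group (n = 2 arrays) a pre-miR negative control. The labels give TurboFect and antibiotic-free media as shared conditions, and no separate dose of the control, no time of harvest and no mimic sequence. They do not say whether a group's 2 arrays hold RNA of separate cultures. A p-value therefore reflects array-to-array spread alone, and that spread may be technical.

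Replication begins when the origin recognition complex, CDC6 and CDT1 load the MCM helicase onto DNA in G1, a step called licensing. In S phase the helicase is activated, primase and DNA polymerase alpha start each strand, and polymerases epsilon and delta extend them on the sliding clamp PCNA. Many of these genes are switched on together at the G1/S boundary by E2F factors once RB is phosphorylated by CDK4/6 and CDK2, and dividing luminal breast cancer cells express them.

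The start sites of these genes are shown first, because E2F motifs were found near them at a higher share than near tested genes in general. RefSeq promoter windows (GRCh38.p14, 250 bases before to 50 after a start) matched 35 members by symbol, with DSCC1, POLD3, RPA2 and RPA3 unmatched. Both strands were searched for the E2F octamers TTTCCCGC, TTTCGCGC, TTTGCCGC and TTTGGCGC. They were present in 14 of 35 members (40.0%), against 5.66% of the 12588 tested genes with a window. Of all 35116 windows 3.31% held one, and of the members' 45 windows 33.3% did. Of the 16 matches in member windows, 12 began within the 80 bases before the start, and none shared a base with a match of the other motifs searched. The 80 bases before the start are printed for members with a match that had very unequal differences, and for POLD2, which has no match. Capitals mark the octamer, read on either strand.
UHRF1: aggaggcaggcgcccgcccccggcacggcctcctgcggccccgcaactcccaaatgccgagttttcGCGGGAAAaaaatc
DTL: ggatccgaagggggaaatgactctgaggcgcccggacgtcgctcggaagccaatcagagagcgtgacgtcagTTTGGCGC
CDT1: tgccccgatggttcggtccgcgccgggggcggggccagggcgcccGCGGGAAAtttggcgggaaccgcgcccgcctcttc
TYMS: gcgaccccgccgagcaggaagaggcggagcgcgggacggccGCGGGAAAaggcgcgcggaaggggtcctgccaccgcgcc
RFC3: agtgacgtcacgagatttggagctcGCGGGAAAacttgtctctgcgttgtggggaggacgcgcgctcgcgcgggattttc
POLE: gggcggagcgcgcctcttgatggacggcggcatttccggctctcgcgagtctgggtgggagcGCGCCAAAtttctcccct
PCNA: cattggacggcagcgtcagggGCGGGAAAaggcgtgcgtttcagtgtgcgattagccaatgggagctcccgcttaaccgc
POLD2: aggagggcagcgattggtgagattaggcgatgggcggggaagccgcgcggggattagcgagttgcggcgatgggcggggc

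In GRCh38.p14 these stretches are chr19:4909421-4909500 (plus strand, UHRF1), chr1:212035668-212035747 (plus, DTL), chr16:88803709-88803788 (plus, CDT1), chr18:657573-657652 (plus, TYMS), chr13:33818069-33818148 (plus, RFC3), chr12:132687343-132687422 (minus, POLE), chr20:5126623-5126702 (minus, PCNA) and chr7:44123549-44123628 (minus, POLD2). The CCAAT box (CCAAT) was found in 21 of 35 members (60.0%), against 42.9% of tested genes. The CHR element of mitotic genes (TTTGAA) was in 1 member, RRM1 (2.86%, against 15.2%). The interferon-stimulated response element was in 0 of 35, against 3.95%. A match is a run of letters, not a shown binding site.

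Most members had lower values in the mimic arrays, by a modest amount that seldom passed the test. All levels are log2 values, and every difference is mimic minus control on that scale. The median difference of the 39 members was -0.42, from -1.05 for UHRF1 to 0.29 for POLD3, against 0.00 over all genes tested. Members were brighter than most genes, with a median control level of 8.85 against 6.60. With only probesets at or above the table's median, the median differences were -0.41 for members and -0.05 for all genes. A value below 0 was found in 36 of 39 members (92.3%), against 49.7% of all genes. In 33 members (84.6%) each mimic array was below each control array, against 29.5% of all genes. In 2 they lay above, which 20.5% of all genes did. By limma, with Benjamini-Hochberg adjustment over all genes and a threshold of 0.05, 1 of 39 members (2.56%) was lower and 0 higher, against 0.789% lower and 1.52% higher of all genes (2.31% in either direction). At an unadjusted p under 0.05 in this fit, which ignores the replicate number, it was 22 lower (56.4%) and 0 higher, against 12.8% and 7.66%. At an adjusted p under 0.1 it was 7 (17.9%), against 3.35%.

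The controls themselves differed. Relative to each gene's control mean, the median member lay at -0.09 in control 1 and 0.09 in control 2, and at -0.49 and -0.35 in mimic 1 and mimic 2. In 35 of 39 members control 1 was the lower control. Without control replicate 1 the median was -0.53, and without control replicate 2 it was -0.30. Each of these fits left a single control array, so their calls enter only the tallies over all alternatives. The submitters' design text calls the mimic and control samples paired. Taken by number, the median member differed by -0.38 in pair 1 and -0.46 in pair 2, and 35 of 39 were lower in both pairs, against 38.5% of all genes. With the replicate number as a block limma called 4 members lower (10.3%), against 1.24% of all genes. These were UHRF1 (adjusted p = 0.0428), WDHD1 (0.0483), POLD2 (0.0490) and DTL (0.0499).

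**Figure D1:**
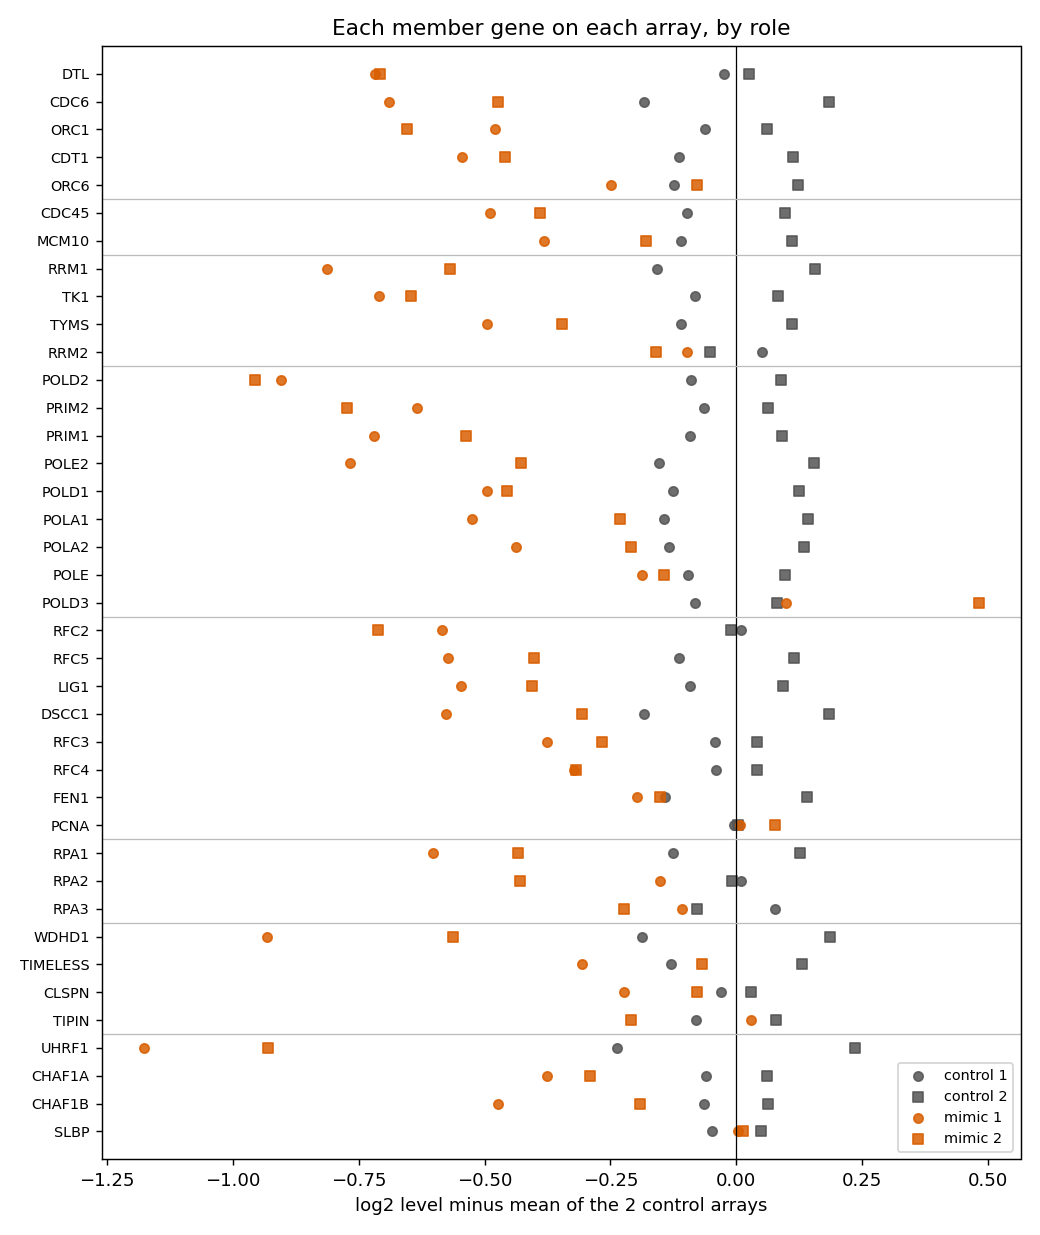
Each row is a member gene, grouped by role, and each point is 1 array's log2 level minus the mean of the 2 control arrays. Mimic arrays lie left of both control arrays in 33 of 39 rows, while PCNA, SLBP and TIPIN lie near the control mean and POLD3 lies to its right.

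Among the genes of licensing and its control all 5 had negative differences, with a median of -0.57. By limma 0 passed and 4 were lower at an unadjusted p under 0.05, against 12.8% of all genes. DTL is the adaptor through which a cullin ligase destroys CDT1 in S phase. It read 10.07 and 10.12 in the control arrays and 9.38 and 9.39 in the mimic arrays, so the groups stood well apart. The difference was -0.71 (SE 0.118, 95% confidence interval -1.01 to -0.42, adjusted p = 0.0548). On all 4 arrays DTL passed by limma with quantile normalization (adjusted p = 0.0438), no filter (0.0066) and probesets at or above the table's median (0.0477). It did not pass with equal array medians (0.0626), cyclic loess (0.0510) or the median of probesets (0.141). CDC6, the loader that brings the MCM helicase to the origin, had -0.58 (SE 0.175). ORC1, the subunit that recruits CDC6, had -0.57, and CDT1, which carries the helicase in, had -0.50. ORC6, which also acts in cytokinesis, read 6.95 and 7.20 in control and 6.83 and 7.0 in mimic arrays. Its groups overlapped, at -0.16 (95% confidence interval -0.54 to 0.21).

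Of the helicase activators, CDC45 forms the active helicase with MCM and GINS, and MCM10 starts its movement. CDC45 read 8.19 and 8.39 in control and 7.80 and 7.90 in mimic arrays, a difference of -0.44 (SE 0.134, adjusted p = 0.162). MCM10 read 8.27 and 8.49 in control and 8.0 and 8.20 in mimic arrays, with -0.28 (SE 0.149, adjusted p = 0.365). In both genes the mimic arrays were the lower ones. For MCM10 the nearest mimic and control arrays lay closer together than the 2 arrays of a group. By pair number MCM10 differed by -0.27 and -0.29.

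All 4 enzymes of nucleotide synthesis were below 0, with a median of -0.55. By limma 0 passed and 3 were lower at an unadjusted p under 0.05, against 12.8% of all genes. Differences between the enzymes were not tested. Thymidine kinase TK1 salvages thymidine in S phase. It read 10.47 and 10.63 in control and 9.84 and 9.90 in mimic arrays, without overlap, at -0.68 (SE 0.128, adjusted p = 0.0715). RRM1, the large subunit of ribonucleotide reductase, had -0.69 (SE 0.169, adjusted p = 0.113), with arrays of 9.76 and 10.07 against 9.10 and 9.35. Thymidylate synthase TYMS had -0.42 (SE 0.142). RRM2, the S-phase radical-bearing subunit that pairs with RRM1, read 11.66 and 11.56 in control and 11.51 and 11.45 in mimic arrays. The groups lay close together, at -0.13 (95% confidence interval -0.44 to 0.18, adjusted p = 0.608). RRM2 rests on 2 probesets, at -0.16 and -0.10. Another 7 carry the listed name C2orf48, which RefSeq gives as a synonym of RRM2, and 6 of them passed the filter. Those 6 were far dimmer, with mean levels of 4.48 to 6.97, against control levels of 11.25 and 11.97 for the 2 probesets named RRM2. When the 6 were added, an alternative chosen after the data were seen, the mean for RRM2 rested mostly on them and was 0.27 (adjusted p = 0.359).

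Nucleotide enzymes outside the set held 2 genes that rose. Of 24 measured genes of nucleotide supply from a list of 27, limma called 2 higher and 0 lower, against 1.52% and 0.789% of all genes. The median was -0.18, and 17 were below 0, against 49.7% of all genes. SAMHD1, which degrades deoxynucleoside triphosphates and restricts viruses, read 8.75 and 9.04 in control and 10.58 and 10.86 in mimic arrays. It rose by 1.83 (SE 0.170, adjusted p = 0.00988), a 3.54-fold change. TYMP, thymidine phosphorylase, which breaks thymidine down, read 5.16 and 4.92 in control and 6.68 and 6.52 in mimic arrays and rose by 1.56 (SE 0.145, adjusted p = 0.00986). Both passed under all 14 alternatives, at 1.60 to 1.97 for SAMHD1 and 1.43 to 3.91 for TYMP. Both are also known as interferon-induced. By limma all 19 measured genes of an interferon-stimulated list of 20 were called higher, against 1.52% of all genes, with a median of 5.60. Whether this is tied to the rises of SAMHD1 and TYMP was not tested. The next smallest p in the list were those of IMPDH2, of guanine nucleotide synthesis, with -0.68 (adjusted p = 0.0604), and PAICS, of purine synthesis, with -0.41 (adjusted p = 0.154). RRM2B, the reductase subunit used outside S phase, had -0.42 (adjusted p = 0.239).

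**Figure D2:**
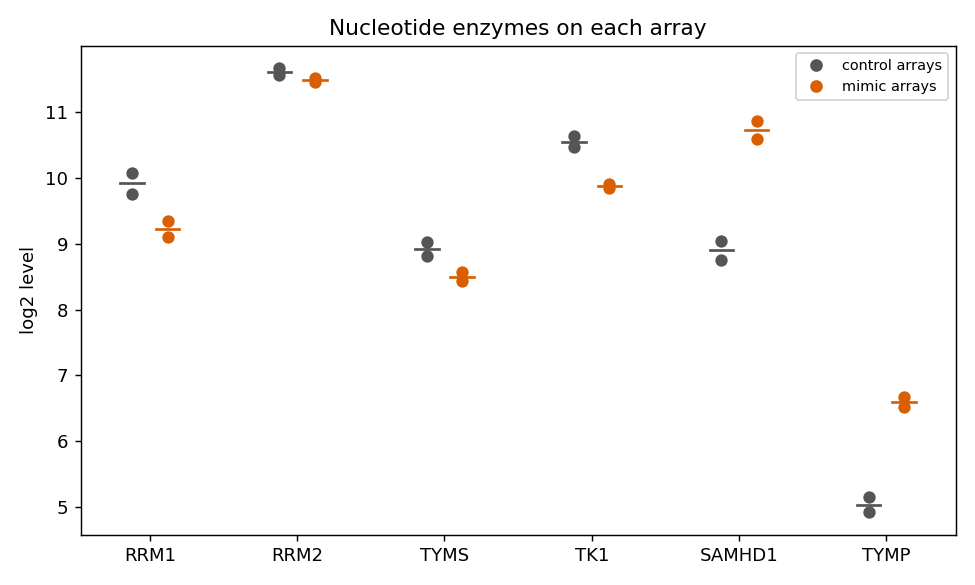
Points are the log2 levels of 6 nucleotide enzymes on each array and bars are group means of 2 arrays. The mimic arrays lie below the controls for RRM1, TYMS and TK1 and, narrowly, RRM2, and above them for SAMHD1 and TYMP. Heights of different genes are not comparable, since each has its own probes.

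The polymerase group held the 1 member past the threshold and also the member with the highest difference, both of them subunits of polymerase delta. POLD2, the regulatory subunit that ties the catalytic one to the rest of the enzyme, read 8.96 and 9.13 in control and 8.14 and 8.09 in mimic arrays. It fell by 0.93 on the log2 scale (SE 0.130, 95% confidence interval -1.26 to -0.60, adjusted p = 0.0365), a 1.91-fold lower level, from 9.05 ± 0.126 (SD, n = 2) to 8.12 ± 0.036 (SD, n = 2). The change was -0.96 without mimic replicate 1 and -0.90 without mimic replicate 2, in fits that each left a single mimic array. It was -0.92 with the median of probesets (adjusted p = 0.0648) and -0.54 with the brightest one (adjusted p = 0.256). POLD2 rests on 4 probesets, of which the 2 brighter had -0.41 and -0.54 and the 2 dimmer -1.43 and -1.34. POLD3, an accessory subunit that holds the clamp, read 7.54 and 7.71 in control and 7.73 and 8.11 in mimic arrays. Both mimic arrays were above both controls, but mimic 1 only just, at 0.29 (95% confidence interval -0.15 to 0.73, adjusted p = 0.417). With the replicate number as a block limma gave POLD3 an interval of 0.002 to 0.58 (unadjusted p = 0.0491, adjusted p = 0.151). With only probesets at or above the table's median, and no block, POLD3 had 0.17 (adjusted p = 0.590). POLD1, the catalytic subunit, had -0.47 (SE 0.140, adjusted p = 0.153).

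Primase makes the RNA primers, and both of its subunits had lower values in the mimic arrays. PRIM2 had -0.70 (SE 0.130, adjusted p = 0.0694), with arrays of 8.82 and 8.94 in control and 8.25 and 8.11 in mimic. PRIM1, the catalytic subunit, had -0.63 (SE 0.141, adjusted p = 0.0981), and by pair number it differed by -0.63 and -0.63. Their partners in the polymerase alpha complex, POLA1 and POLA2, had -0.38 and -0.32 (adjusted p = 0.301 and 0.333). For polymerase epsilon, the accessory subunit POLE2 had -0.60 (SE 0.183, adjusted p = 0.163) and the catalytic subunit POLE -0.17 (SE 0.131, adjusted p = 0.538). The median of the 9 genes was -0.47, and the difference between any pair of them was not tested.

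**Figure D3:**
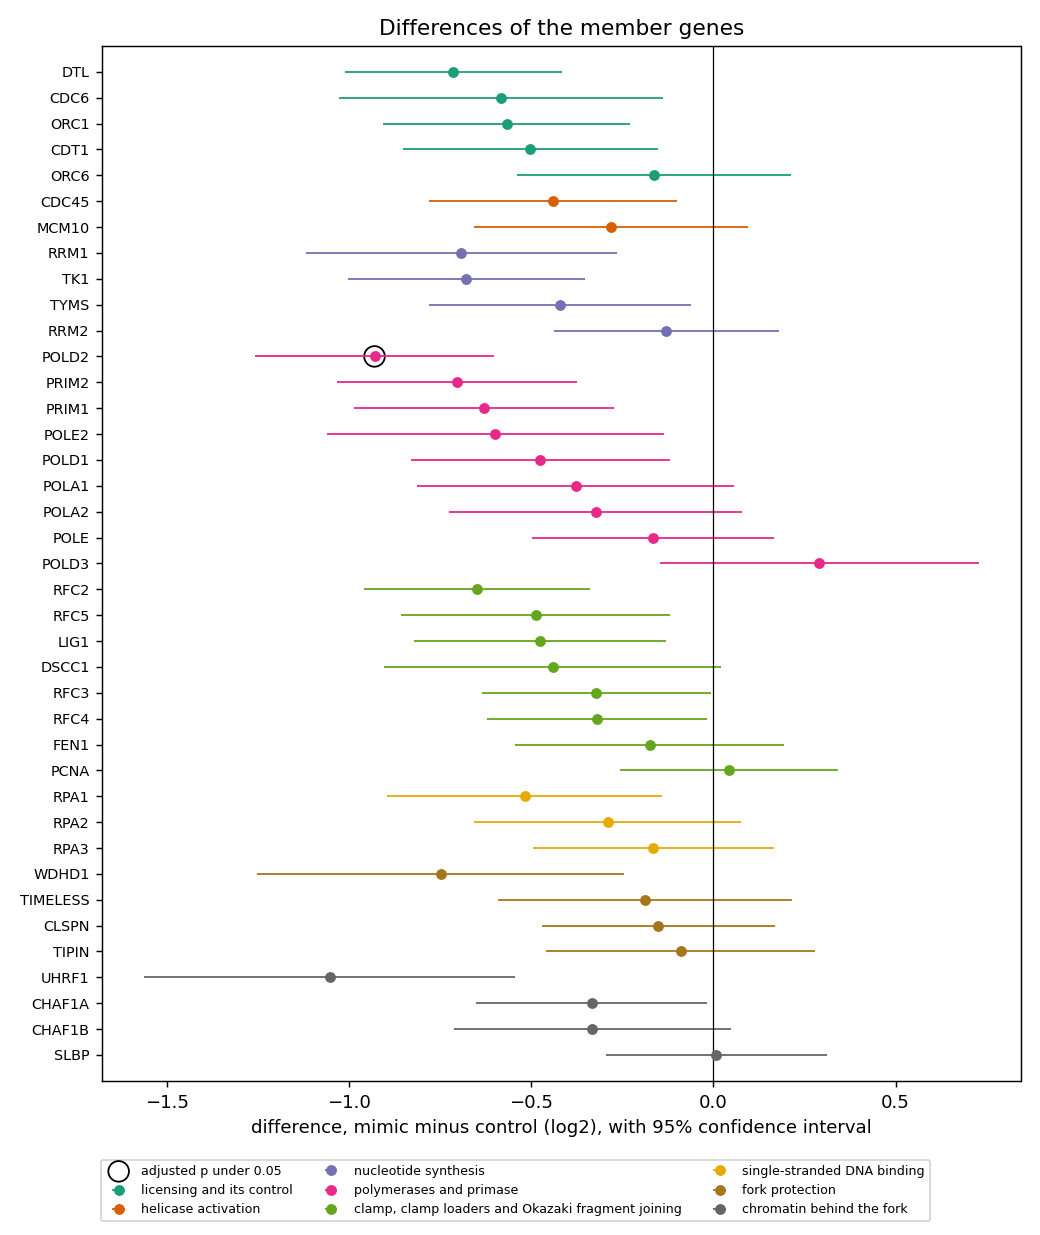
Points are differences between the mean mimic and mean control log2 level of each member, bars are limma's 95% confidence intervals and colours are roles. POLD2, ringed, passed an adjusted p of 0.05, and UHRF1, lower still at -1.05, had a wider interval.

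PCNA had nearly the same mean in both groups, while the factors that load it had lower values in the mimic arrays. The clamp itself, which encircles DNA and holds polymerases, read 10.80 and 10.80 in control and 10.81 and 10.88 in mimic arrays. Its difference was 0.04 (SE 0.119, 95% confidence interval -0.26 to 0.34, adjusted p = 0.871), and its 4 probesets lay between -0.03 and 0.09. RFC2, a small subunit of the clamp loader, read 9.45 and 9.43 in control and 8.86 and 8.73 in mimic arrays. The arrays separated clearly, at -0.65 (SE 0.123, adjusted p = 0.0717). The other small subunits RFC5, RFC3 and RFC4 had -0.49, -0.32 and -0.32. DSCC1, of the alternative loader that serves sister chromatid cohesion, had -0.44. Of the enzymes that finish Okazaki fragments, ligase LIG1 had -0.48 (SE 0.137, adjusted p = 0.146) and flap nuclease FEN1 -0.18 (SE 0.146, adjusted p = 0.558). Of the 8 genes 7 were below 0, with a median of -0.38. By limma 0 passed and 5 were lower at an unadjusted p under 0.05, against 12.8% of all genes.

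RPA coats single-stranded DNA as a trimer. RPA1, its largest subunit, read 10.04 and 10.29 in control and 9.56 and 9.73 in mimic arrays, at -0.52 (SE 0.149, adjusted p = 0.148). RPA2 had -0.29 (SE 0.145, adjusted p = 0.340). RPA3 read 7.67 and 7.51 in control and 7.48 and 7.37 in mimic arrays, at -0.17 (SE 0.131). All 3 had both mimic arrays below both controls, though for RPA3 by a margin smaller than the spread within a group. For RPA2 the margin was smaller than the gap between its mimic arrays, which read 6.48 and 6.20, with controls of 6.64 and 6.62.

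All 4 genes of fork protection were below 0, with a median of -0.17. By limma 0 passed and 1, WDHD1, was lower at an unadjusted p under 0.05, against 12.8% of all genes. WDHD1, which couples the helicase to polymerase alpha, read 8.58 and 8.96 in control and 7.84 and 8.21 in mimic arrays. The 2 arrays of each group lay far apart, yet no mimic array reached a control array. The difference was -0.75 (SE 0.199, adjusted p = 0.130), and by pair number it was -0.75 and -0.75. TIMELESS and TIPIN, which form a complex that keeps helicase and polymerase together, had -0.19 and -0.09. TIPIN read 8.77 and 8.93 in control and 8.88 and 8.64 in mimic arrays, and the groups overlapped (95% confidence interval -0.46 to 0.28). CLSPN, the adaptor of the replication checkpoint, had -0.15 (adjusted p = 0.559).

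Behind the fork, UHRF1 reads half-methylated DNA and brings in DNMT1. It read 7.40 and 7.88 in control and 6.47 and 6.71 in mimic arrays, the lowest difference of any member at -1.05 (SE 0.201, 95% confidence interval -1.56 to -0.54). Its adjusted p was 0.0727, with controls that differed from each other more than those of any other member. By pair number UHRF1 differed by -0.94 and -1.17, and with the replicate number as a block limma gave an adjusted p of 0.0428. Without control replicate 1 it had -1.29 and without control replicate 2 -0.82. DNMT1, the maintenance methyltransferase, had 0.02 (adjusted p = 0.960). CHAF1A and CHAF1B, subunits of the chromatin assembly factor, both had -0.33. SLBP, which binds the stem-loop of histone mRNAs, read 8.65 and 8.75 in control and 8.70 and 8.71 in mimic arrays. The mimic arrays fell between the controls, at 0.01 (95% confidence interval -0.30 to 0.31).

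Single probesets, each reading about 1 exon, showed how even these differences were along a transcript. Of 624 member probesets 540 (86.5%) were below 0, against 53.5% of all 163774 tested. In 374 (59.9%) both mimic arrays lay below both controls, against 27.1%, and in 27 (4.33%) above, against 20.7%. None passed on its own (0 lower and 0 higher), against 0.0946% lower and 0.823% higher. All probesets of DTL (16), PRIM2 (12), TK1 (9) and POLD2 (4) had both mimic arrays below both controls, as did 18 of 19 for RPA1 and 21 of 24 for RRM1. In bright probesets, at or above the median of the table, the share of member probesets with both mimic arrays below was 62.2%, against 31.3% of all. In dimmer ones it was 47.4%, against 18.4%.

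Some genes were uneven. MCM10 had both mimic arrays below in 16 of 24 probesets, but 2 dim ones, at control levels of 4.64 and 4.35, had 1.16 and 1.04. POLD3 had 1.75 on 1 dim probeset, at a control level of 4.52, and a median of 0.09 over its 12. FEN1 ran from -1.04 to 0.57 over 6 probesets, and on the brightest it had 0.13. TYMS had 0.64 on 1 probeset and negative values on the other 9. With the median of probesets in place of the mean, POLD3 had 0.10 and MCM10 -0.34.

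**Figure D4:**
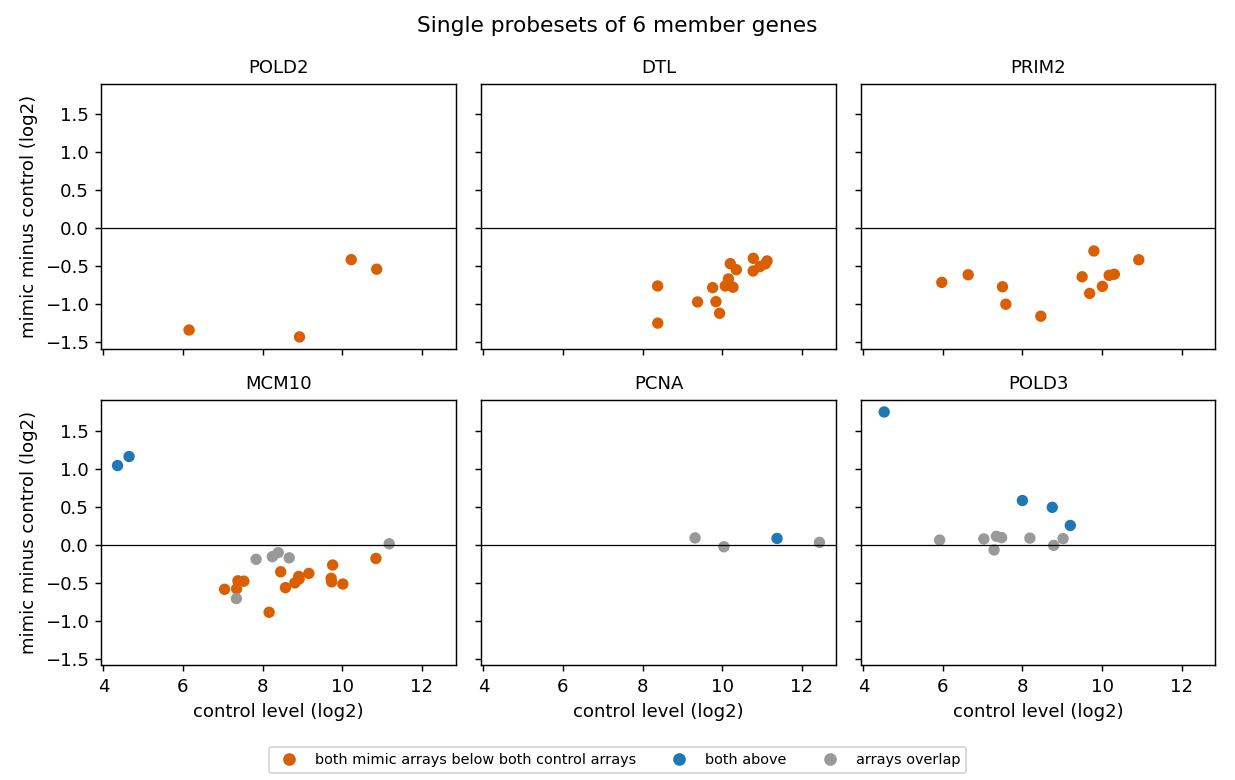
Each point is a probeset, with its control level across and its difference up, both in log2. DTL, PRIM2 and POLD2 lie wholly below 0, PCNA lies along 0, and the high points of MCM10 and POLD3 sit at the dim end.

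The rest of the replication machinery, from a list that shares no gene with the set, gave values in a like range. Of 35 measured genes from a list of 36, limma called 3 lower and 0 higher, against 0.789% and 1.52% of all genes. The median was -0.45, and 31 were below 0, against 49.7% of all genes. In 27 (77.1%) both mimic arrays were below both controls, against 29.5%. GINS2 and GINS4, which hold the helicase together, fell by 1.08 (SE 0.146, adjusted p = 0.0327) and 1.04 (SE 0.131, adjusted p = 0.0267), and the helicase subunit MCM6 fell by 0.93 (SE 0.117, adjusted p = 0.0264). Over the 14 alternatives GINS2 ran from -1.21 to -0.71, GINS4 from -1.73 to -0.95 and MCM6 from -0.98 to -0.71. With the median of probesets 0 genes of the list were called, and 55 of all genes tested were called lower. CHTF18, the partner of DSCC1, had -0.63 (adjusted p = 0.0702). DBF4, the activator of the CDC7 kinase, had 0.14 and CDC7 -0.47 (adjusted p = 0.589 and 0.134), and TOP1 had 0.09 (adjusted p = 0.775).

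Genes of G2/M and mitosis had lower values too. All 28 measured were below 0, against 49.7% of all genes, with a median of -0.33. In 22 (78.6%) both mimic arrays were below both controls, against 29.5%. Of the 28, limma called 0, and 12 were lower at an unadjusted p under 0.05 (over all genes tested, 12.8%). The smallest p was that of the mitotic kinesin KIF2C, with -0.70 (adjusted p = 0.0630). It was followed by ANLN, which organises the contractile ring, with -0.59 (adjusted p = 0.0848). The spindle protein HMMR had -0.68 (adjusted p = 0.110) and CDCA8, of the chromosomal passenger complex, had -0.67 (adjusted p = 0.128). MKI67, the proliferation marker Ki-67, had -0.07 (adjusted p = 0.887). In bulk RNA, fewer cells in S phase and less of each RNA per cell cannot be told apart. Whether the members' values differ from those of the mitotic genes was not tested.

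**Figure D5:**
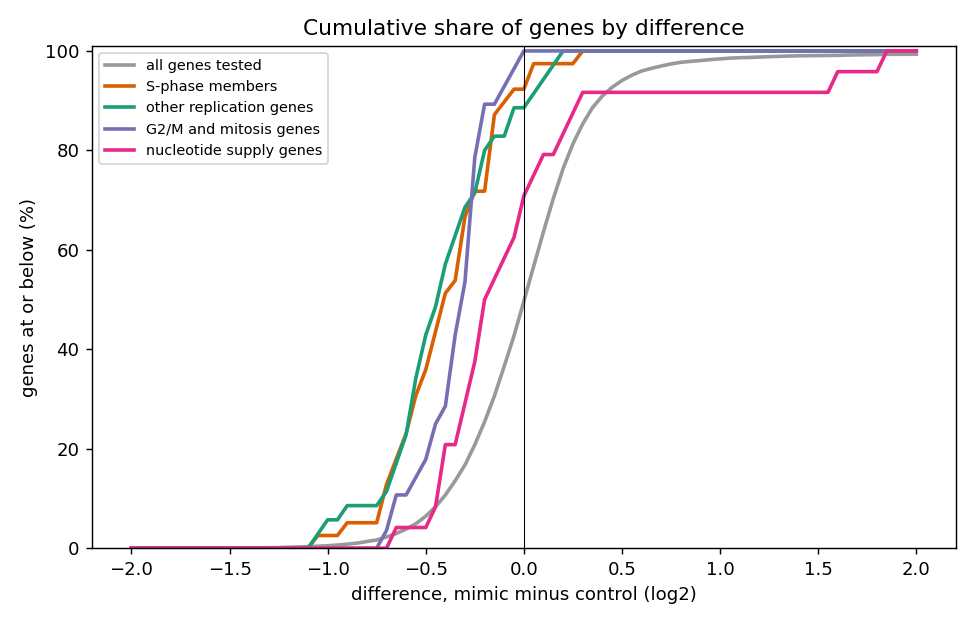
Curves give the percentage of genes at or below each difference (log2) in each list. The S-phase members (median -0.42) and the other replication genes (median -0.45) nearly coincide, the G2/M genes (median -0.33) lie in a narrower range, and 2 nucleotide supply genes lie beyond 1.5.

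Members with and without an E2F octamer had overlapping differences. The 14 members with a match had a median of -0.40, from -1.05 for UHRF1 to 0.04 for PCNA, and the 21 without had -0.47, from -0.93 for POLD2 to 0.01 for SLBP. Over all tested genes with a window, the 713 with a match had a median of -0.09 with 62.4% below 0, and those without had -0.00012 with 50.03% below 0. Without the members the first values were -0.08 and 61.8%. These are descriptions of genes on the same 4 arrays.

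The 8 luminal markers, KRT8, KRT18, KRT19, GATA3, FOXA1, ESR1, PGR and EPCAM, had control levels of 8.97 to 12.40, as the label of a luminal line requires, and 0 were called, with 3 lower at an unadjusted p under 0.05. Of 13 measured liver and neuron genes, used to gauge background, 11 had control levels of 3.78 to 5.53, SYT1 had 6.85 and SERPINA1 9.45. Their median difference was 0.22, with 9 of 13 above 0, 0 called and 2 higher at an unadjusted p under 0.05. Fibroblast markers had differences above 0 in 8 of 8, with 0 called, 2 higher at an unadjusted p under 0.05, and summed log2 levels of 39.2 to 41.1 in control and 42.7 to 43.5 in mimic arrays. Their control levels were 4.19 to 6.83, and their part in the members' values was not tested. The 4 endothelial markers were also all above 0, with a median of 0.21, 0 called and 1, CDH5, higher at an unadjusted p under 0.05. Their summed log2 levels were 21.6 to 22.7 in control and 22.8 to 23.4 in mimic arrays, and their part was likewise not tested. Of 8 leukocyte markers 5 were measured and 0 were called, with 1 higher at an unadjusted p under 0.05. Over all genes tested, 12.8% were lower and 7.66% higher at that limma p, and 49.7% were below 0. The arrays correlated over all probesets at r = 0.985 between mimic arrays, 0.984 between controls and 0.966 to 0.973 across groups.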

How the data were processed

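The deposited table holds log2 values for 232479 exon-level probesets on 4 arrays; the submitters' processing notes name Partek, RMA and hg18, with no versions or order. The authors' log2 values were used as given. Of the probesets, 216780 carried 1 gene symbol in GEO's platform annotation, 2335 several and 13364 none. Symbols were updated through RefSeq (25772 by synonym, 950 kept as listed). A gene's value was the mean of its probesets whose mean over all arrays reached the table's 25th percentile, 4.08. Differences came from a limma 3.58.1 fit (R 4.3.3; lmFit, eBayes, two-sided tests) with Benjamini-Hochberg adjustment over 15720 genes. The residual degrees of freedom were 2, or 5.29 after moderation. The number of arrays limits precision. The fit was tested on simulated data. Plots used matplotlib 3.10.9.

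Arrays of the same number deviated together from their group means (r = 0.435 over genes). The design text calls the samples paired without saying how, so the block is given where it changes a call, and for POLD3. Other SEs, intervals and p-values of the members come from the fit without the block, unless another setting is named. In full, values of every array are given for members past the threshold and, in each role, those with the smallest p and the highest difference. From the lists of other replication, nucleotide supply and G2/M genes, those past the threshold and the 4 smallest p were named. Genes of the interferon-stimulated list were not named. In this text DNMT1, RRM2B, CDC7, DBF4, TOP1 and MKI67 were added after their values were seen. The members and lists were chosen with earlier results of these data known. Alternatives were other normalizations, filters, gene summaries, variance models, the block and leaving out each array. Tallies over the alternatives include the fits that left a single array in a group, whose calls carry less weight.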

Additional observations from a re-analysis of the deposited data

How the results depend on the processing

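The direction of the members' median held under all 14 alternatives run on it, from -0.53 to -0.27, with the call count far less stable. Leaving out 1 array at a time gave a median of -0.53 to -0.30, 0 to 12 members called, 172 to 1694 genes called in all, 0 to 11 other replication genes, 2 to 3 nucleotide supply genes and 0 to 4 G2/M genes. Members called numbered 1 in the reported fit, 4 with the replicate block, 2 with quantile normalization, 2 with probesets at or above the table's median, 14 with no filter, 13 with an intensity trend, 7 at an adjusted p under 0.1, and 0 with the median of probesets or the brightest probeset, where the members' median was -0.27. All genes called numbered 363 of 15720, against 498 with the replicate block, 534 with quantile normalization and 1594 when the variance followed intensity. With the median of probesets they numbered 247 and with the brightest probeset 122. They were 1433 of 16544 with no filter and 372 of 12378 with probesets at or above the table's median. Other replication genes numbered 3, against 15 with no filter, 18 with an intensity trend and 0 with the median or the brightest probeset. G2/M genes numbered 0, against 1 with quantile normalization, 4 with no filter and 8 with an intensity trend, and nucleotide supply genes 2, against 4 with an intensity trend. The replicate block changed the call of 3 members, and the other 36 stayed on the same side. Over 546 member values, 486 kept direction and side of the threshold, 42 passed where they had not, 4 lost a call (all POLD2) and 14 changed sign, the cause of which was not tested. None of those that changed sign passed in either fit. With no filter PCNA had -0.026. With probesets above the table's median CLSPN had 0.0114 and SLBP -0.0566. With the median of probesets FEN1 had 0.22, TIPIN 0.0136, CHAF1B 0.0725 and SLBP -0.0754. With the brightest probeset MCM10 had 0.0106, POLE 0.0575, FEN1 0.13, CHAF1A 0.28, SLBP -0.22 and the median of the nucleotide supply genes 0.0517, while the medians of the licensing, other replication and G2/M genes were -0.27, -0.21 and -0.15. Leaving out 1 array at a time, TIPIN ran from -0.209 to 0.0304 (without mimic replicate 2) and SLBP from -0.04 (without control replicate 1) to 0.0568. With the dimmer C2orf48 probesets added, RRM2 had 0.27. Of all calls 34.2% were lower, against 62.3% with no filter, 66.9% when the variance followed intensity and 5.74% for the brightest probeset.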
